A study of Mus musculus with 6 samples.

Results

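The 45 genes described here encode proteins that copy DNA, pull chromosomes apart or govern entry into the cell cycle. They were taken by symbol from a table of 54532 mouse genes, all 45 were found there, and all 45 had enough counts to be tested. By their textbook roles 15 act in S phase, 18 in mitosis and 12 as regulators of G1. RNA was sequenced from the quadriceps of 10-day-old mice, in 3 control libraries of the genotype Pcyt2 flox/flox and 3 libraries of the genotype Myf5Cre-Pcyt2 flox/flox, on the same background, all from chow-fed mice. In the second group Cre recombinase is driven from Myf5, a gene of muscle precursor cells, so that the floxed gene is targeted in those cells and their descendants while other cells of the muscle are not the target. Pcyt2 encodes an enzyme that makes CDP-ethanolamine, a step in the synthesis of phosphatidylethanolamine. The labels do not say that the controls carry Cre, so the loss of Pcyt2 and the presence of Cre cannot be told apart. Nor do they state which pups were littermates, so every p-value here speaks of the spread among these 6 libraries only.

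A cell that divides first loads the MCM helicase on its origins, then opens and copies its DNA, and then condenses and separates the copies. Cyclin D with CDK4 and cyclin E with CDK2 release E2F factors from retinoblastoma proteins, and E2F then drives the genes of DNA replication, while genes of mitosis peak later through promoter elements named CHR (cell cycle genes homology region) and CCAAT. The inhibitors p21, p27 and p18 hold the kinases back, and muscle precursors leave the cycle when they fuse into fibres, whose nuclei do not divide. In growing muscle the dividing cells are muscle precursors, fibroblasts, endothelial cells and others, so RNA of these genes in whole quadriceps comes from several cell types.

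The promoters of the replication and mitosis genes carried different letters. Windows of 300 bases, from 250 bases before to 50 bases after the RefSeq start (GRCm38.p6), were at hand for 36 of the 45 genes. The 9 others were Mcm4, Gins2, Ccna2, Aurkb, Kif20a, Tpx2, Ccnd1, Ccnd2 and Ccne2. Both strands were searched for 4 E2F words (TTTCCCGC, TTTGGCGC, TTTCGCGC and TTTGCCGC), for 2 CHR words (TTTGAA and TTCGAA) and for CCAAT, and in 1 window of these genes 2 different motifs shared bases. E2F letters lay in 7 of 15 windows of S-phase genes (46.7%), those of Mcm3, Mcm5, Mcm6, Mcm7, Cdc6, Cdt1 and Uhrf1, and in 1 of 14 windows of mitotic genes (7.14%), that of Cdk1. Over all 32851 windows the share was 2.26%. CHR letters lay in 11 of 14 windows of mitotic genes (78.6%), against 13.3% of S-phase windows and 19.2% of all windows. CCAAT was in 92.9% of mitotic, 73.3% of S-phase and 37.4% of all windows. Of 12 windows of G1 regulators, Cdk2 held E2F letters and E2f8 held CHR letters. A match describes letters in this window only, not binding.

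Stretches of 6 of these promoters are printed below because their genes differ in which of the E2F and CHR letters they carry. The helicase genes Mcm5 and Mcm6 hold E2F but no CHR letters. The mitotic genes Mki67, Top2a and Kif11 hold CHR but no E2F letters, and the mitotic kinase gene Cdk1 holds both. CCAAT also lay in each of these windows and is not marked. Each stretch runs 5′ to 3′ on the gene's strand, with the E2F and CHR letters in capitals. They lie at chr8:75109309-75109467 (plus strand) for Mcm5, chr1:128359706-128359905 (minus) for Mcm6, chr10:69352913-69353112 (minus) for Cdk1, chr7:135716451-135716579 (minus) for Mki67, chr11:99024190-99024389 (minus) for Top2a and chr19:37376182-37376381 (plus) for Kif11, all in GRCm38.p6.
Mcm5: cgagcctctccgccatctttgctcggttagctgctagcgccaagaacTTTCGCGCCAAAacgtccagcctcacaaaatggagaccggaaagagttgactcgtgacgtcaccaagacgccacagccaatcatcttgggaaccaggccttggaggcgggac
Mcm6: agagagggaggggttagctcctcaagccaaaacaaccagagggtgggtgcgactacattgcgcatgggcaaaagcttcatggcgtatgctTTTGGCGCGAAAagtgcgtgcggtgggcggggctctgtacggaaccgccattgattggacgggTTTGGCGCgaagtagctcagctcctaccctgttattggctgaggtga
Cdk1: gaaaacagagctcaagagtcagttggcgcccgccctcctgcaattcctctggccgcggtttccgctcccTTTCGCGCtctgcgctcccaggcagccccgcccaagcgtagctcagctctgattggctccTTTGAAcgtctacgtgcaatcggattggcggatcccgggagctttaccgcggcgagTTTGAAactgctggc
Mki67: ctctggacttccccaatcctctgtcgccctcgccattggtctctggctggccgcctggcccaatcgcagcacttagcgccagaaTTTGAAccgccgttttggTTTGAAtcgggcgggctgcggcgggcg
Top2a: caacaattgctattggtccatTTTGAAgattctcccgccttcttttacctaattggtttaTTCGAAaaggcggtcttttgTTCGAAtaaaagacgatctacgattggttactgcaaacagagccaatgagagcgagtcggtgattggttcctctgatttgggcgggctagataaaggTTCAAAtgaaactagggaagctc
Kif11: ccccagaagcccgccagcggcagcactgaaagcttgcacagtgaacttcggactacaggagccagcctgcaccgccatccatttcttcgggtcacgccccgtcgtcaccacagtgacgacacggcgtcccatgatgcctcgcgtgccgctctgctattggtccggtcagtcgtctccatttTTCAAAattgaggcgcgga
In Mcm5 the capitals hold 2 overlapping E2F words that begin 153 and 149 bases before the start. Mcm6 has such a pair at 110 and 106 bases and a further word at 47. Cdk1 has an E2F word 131 bases before its start and CHR words at 71 and 15. In Kif11 the CHR word lies 19 bases before the start.

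**Figure D1:**
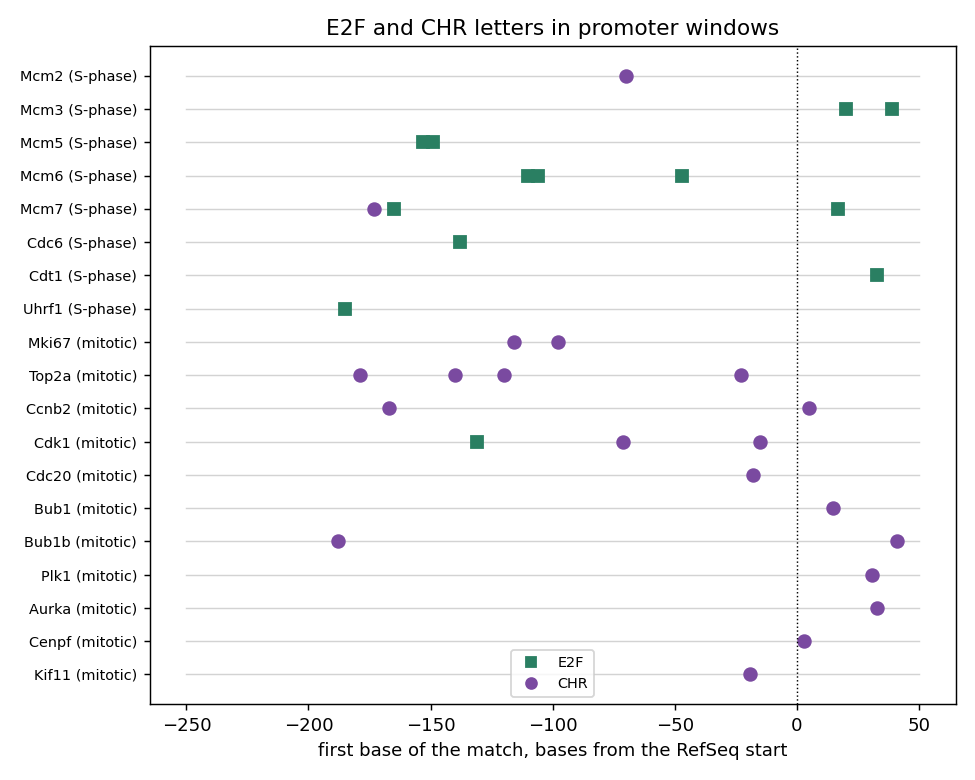
Position of E2F letters (squares) and CHR letters (circles) in the promoter windows of S-phase and mitotic genes that hold either, with the distance of the first base from the RefSeq start on the horizontal axis. Mcm7 and Uhrf1 have 2 windows each, drawn on 1 line. The squares sit on 7 S-phase genes and on Cdk1, and the circles on 11 mitotic genes, Mcm2 and Mcm7.

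Library totals lay between 17775898 and 20446920 counts. Levels below are TMM-scaled CPM, counts relative to the scaled size of the library, and log2 fold changes compare Myf5Cre-Pcyt2 with control, positive where Myf5Cre-Pcyt2 was higher, with their standard error (SE). Adjusted p-values are from edgeR's quasi-likelihood test with Benjamini-Hochberg adjustment over all 14715 genes tested, and a gene passed when this value was under 0.05. Pcyt2 itself stood at 18.7, 16.1 and 16.1 CPM in control and 15.0, 14.3 and 12.6 CPM in Myf5Cre-Pcyt2 (log2 fold change −0.28, SE 0.11, adjusted p = 0.0944). The groups did not overlap but the difference did not pass, and the sources used here do not say which exons are deleted. Of all tested genes 18.6% were called, 9.02% higher and 9.59% lower in Myf5Cre-Pcyt2, and the median log2 fold change was −0.002. Under scaling by library size alone this median was 0.21 and 21.9% of genes were called higher, and the values below are relative to TMM. Of 14715 genes 2739 were called with all 6 libraries. Leaving out the control library of replicate number 2 left 1300 calls, leaving out its Myf5Cre-Pcyt2 counterpart left 846, leaving out both left 237, and leaving out Myf5Cre-Pcyt2 replicate 3 left 1280.

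Many genes of DNA replication, mitosis and G1 control were higher in Myf5Cre-Pcyt2 muscle. Of the 45 genes 19 rose (42.2%, against 9.02% of all genes tested), 0 fell and 26 did not pass, and their median log2 fold change was 0.41. Of these genes 28 had an unadjusted p under 0.05. A log2 fold change above 0 was seen for 43 of the 45 (49.8% of all genes tested), all but Aurka and Cdkn1b, and with library size alone all but Aurka did. For 26 genes every Myf5Cre-Pcyt2 library lay above every control library, a share of 57.8% against 19.9% of all genes tested, and for 0 genes the reverse held (19.2% of all genes tested). With library size alone 30 of the 45 genes were called higher, against the 21.9% of all genes given above, and with a block for the replicate number 13 were, against 5.88%. In bulk muscle, more dividing cells, more of this RNA per dividing cell and a smaller share of RNA from myofibres cannot be told apart. The sum of 6 myofibre markers was 99250 to 134800 CPM in control and 66080 to 76050 CPM in Myf5Cre-Pcyt2, and its part was not tested. The genes Mcm7, Gins2, Tk1, Ccna2, Cdc20, Kif20a, Ccnd1, Ccnd3, Ccne2, Cdk2 and Cdk4 overlap a protein-coding gene on the opposite strand. As the sources used here do not give the strand setting, some reads of these 11 may belong to the other gene.

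**Figure D2:**
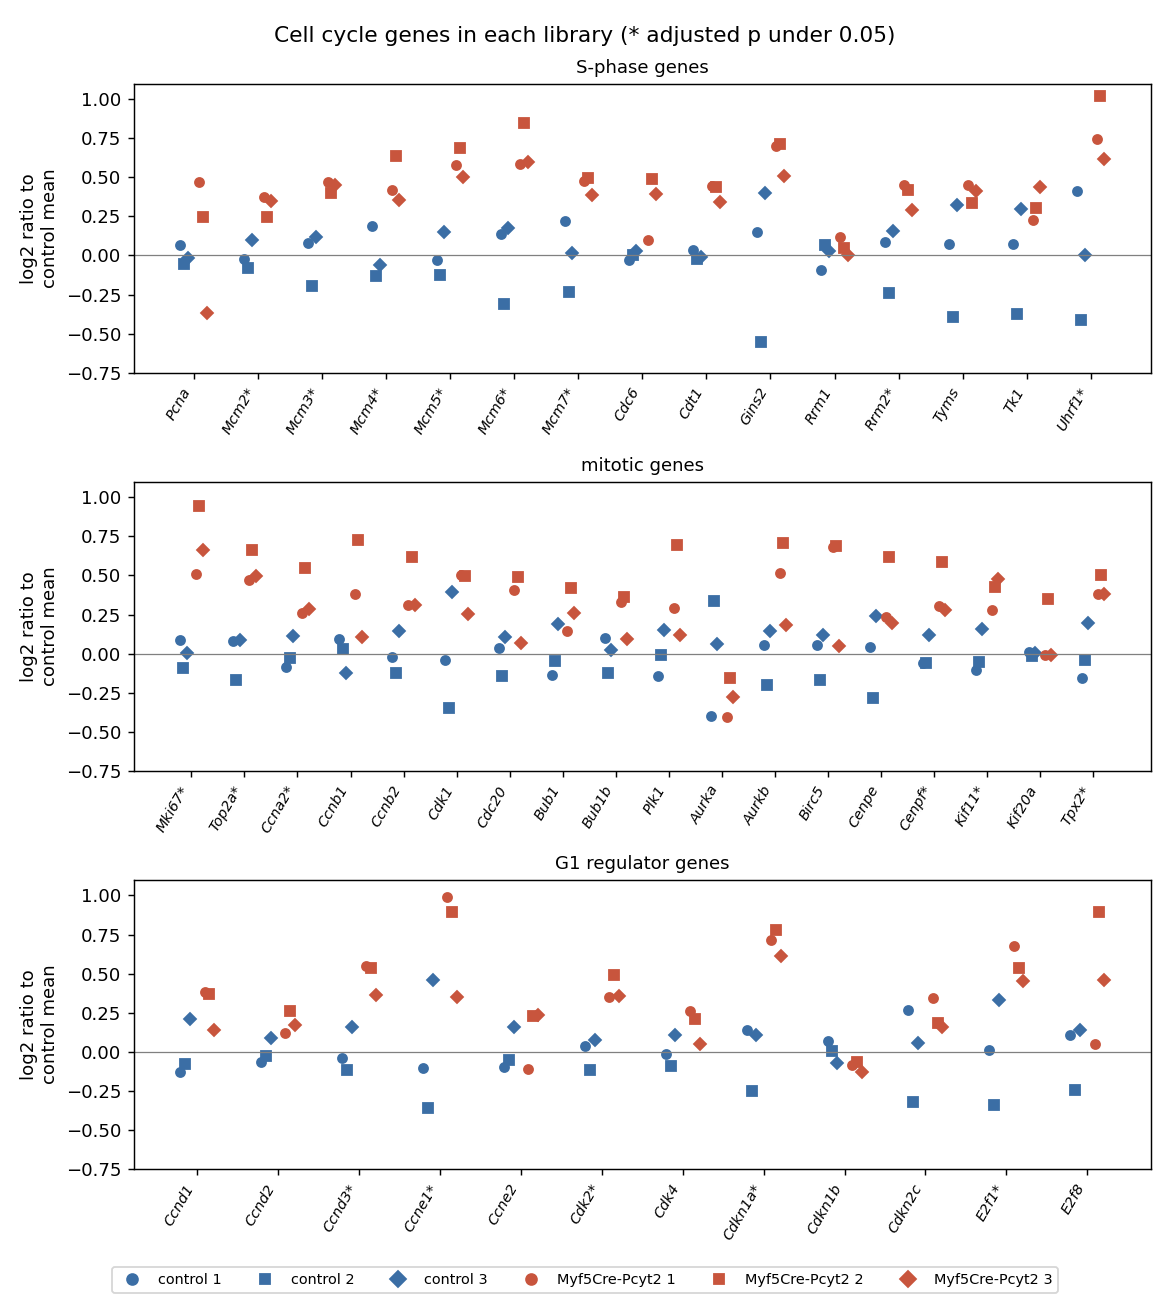
Level of each of the 45 genes in each library, as the log2 ratio of CPM + 0.5 to the control mean, in panels for S-phase, mitotic and G1 regulator genes. Blue marks are control and red marks Myf5Cre-Pcyt2 libraries, with a shape for each replicate number and an asterisk for the 19 genes with an adjusted p under 0.05. Red marks lie above all blue marks for 26 genes, and the red square (replicate 2) is the highest mark for 26 genes.

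The calls did not rest evenly on the libraries. With control replicate 1, 2 or 3 left out, 11, 7 and 19 of the 45 genes were higher, while 8.93%, 4.01% and 7.1% of all tested genes were. With Myf5Cre-Pcyt2 replicate 1, 2 or 3 left out the number was 15, 6 and 11, beside 7.47%, 2.84% and 4.29% of all tested genes. Each of these fits has 1 group of 2 libraries. Without both replicate 2 libraries, a setting chosen after seeing the data, 1 gene passed (Cdkn1a), 16 had an unadjusted p under 0.05 and their median was 0.27, while 0.774% of all tested genes were then called higher. Among the 19 genes, 6 passed whichever single library was left out: Mcm5, Mcm6, Mki67, Top2a, Ccnd3 and Cdkn1a.

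**Figure D3:**
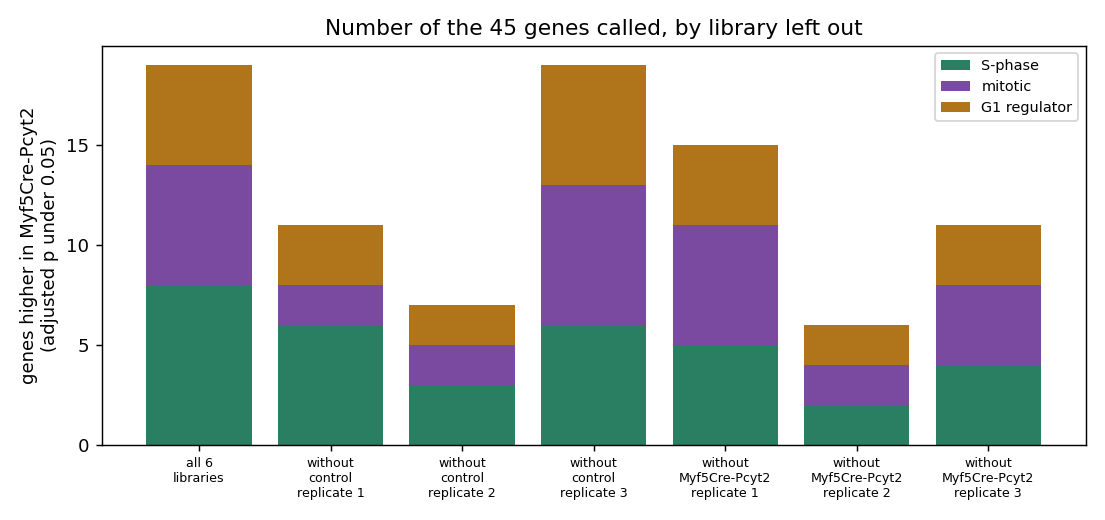
Number of the 45 genes called higher in Myf5Cre-Pcyt2 (vertical axis) with all 6 libraries and with each library left out in turn (bars), stacked by S-phase, mitotic and G1 regulator genes. The bars run from 19 with all libraries to 6 without Myf5Cre-Pcyt2 replicate 2.

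All 6 subunits of the MCM2-7 helicase, the ring that unwinds DNA ahead of the fork, rose. Mcm6 (ENSMUSG00000026355, chr1:128331590-128359664 in GRCm38) stood at 17.5, 12.7 and 18.01 CPM in the control libraries and at 24.1, 29.0 and 24.3 CPM in Myf5Cre-Pcyt2. The groups did not overlap, control replicate 2 was the lowest and Myf5Cre-Pcyt2 replicate 2 the highest library, and the log2 fold change was 0.68 (SE 0.14, adjusted p = 0.00915). Mcm5 (ENSMUSG00000005410, chr8:75109569-75128439) went from 12.5, 11.7 and 14.2 CPM to 19.3, 20.9 and 18.3 CPM, with the same 2 libraries at the extremes (0.61, SE 0.11, adjusted p = 0.00574). For Mcm4 the control libraries gave 16.7, 13.2 and 14.0 CPM and the Myf5Cre-Pcyt2 libraries 19.6, 22.9 and 18.8 CPM (0.48, SE 0.12, adjusted p = 0.0201). These 3 genes had their highest level in Myf5Cre-Pcyt2 replicate 2, and no control library reached any Myf5Cre-Pcyt2 library.

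The other 3 helicase subunits had somewhat smaller fold changes. Mcm7 was at 13.6, 9.80 and 11.8 CPM in control and 16.3, 16.6 and 15.4 CPM in Myf5Cre-Pcyt2 (log2 fold change 0.46, SE 0.12, adjusted p = 0.0292). Mcm3 was at 17.2, 14.2 and 17.7 CPM against 22.8, 21.6 and 22.4 CPM (0.44, SE 0.10, adjusted p = 0.0161). Mcm2 had 19.3, 18.6 and 21.1 CPM against 25.5, 23.3 and 25.1 CPM (0.33, SE 0.09, adjusted p = 0.0302). Again control replicate 2 was the lowest library for each and the groups stayed apart. Of these calls those of Mcm5 and Mcm6 held without any single library. Mcm3 did not pass without Myf5Cre-Pcyt2 replicates 2 and 3 (adjusted p = 0.0546 and 0.0580), and Mcm4 lost its call when control replicate 2 (0.0744), control replicate 3 (0.0546) or Myf5Cre-Pcyt2 replicate 2 (0.0930) was left out. Mcm7 passed only without control replicate 1 (0.0117, and 0.0603 to 0.105 without each other library), and Mcm2 only without control replicate 3 (0.0305, and 0.0556 to 0.106 without each other library).

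The genes that load the helicase and start the fork gave smaller counts and no call, while Uhrf1, which acts behind the fork, passed. Cdc6 and Cdt1, which place the helicase on origins, had log2 fold changes of 0.39 (SE 0.19) and 0.45 (SE 0.15), and Gins2, a subunit of the active helicase, had 0.66 (SE 0.24). None of these 3 passed (adjusted p = 0.167, 0.0549 and 0.0823), although their control and Myf5Cre-Pcyt2 libraries did not overlap. Uhrf1, which brings the maintenance DNA methyltransferase to newly copied DNA, was at 10.6, 5.74 and 7.82 CPM in control and at 13.5, 16.4 and 12.3 CPM in Myf5Cre-Pcyt2. Its log2 fold change of 0.80 (SE 0.20, adjusted p = 0.0199) was the highest of the 45, and control replicate 2 was again lowest and Myf5Cre-Pcyt2 replicate 2 highest. Its call was lost when control replicate 2 (0.0579), control replicate 3 (0.0504) or Myf5Cre-Pcyt2 replicate 2 (0.0957) was left out.

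Pcna, the sliding clamp that holds the polymerase on DNA, did not follow the helicase. It gave 14.3, 13.1 and 13.5 CPM in control and 19.1, 16.2 and 10.4 CPM in Myf5Cre-Pcyt2, so that 2 libraries of the second group were above and 1 below all controls (0.16, SE 0.18, adjusted p = 0.574). Without Myf5Cre-Pcyt2 replicate 1 its log2 fold change was −0.03. The pseudogene Pcna-ps2 had a mean of 45.2 counts, beside 280.7 counts for Pcna, and the sources used here do not say how reads that fit both were counted.

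Among the enzymes of nucleotide supply 1 of 4 passed. Rrm2, the regulated subunit of ribonucleotide reductase, stood at 13.7, 10.8 and 14.4 CPM in control and 17.8, 17.4 and 15.8 CPM in Myf5Cre-Pcyt2 (0.39, SE 0.12, adjusted p = 0.0458). The groups lay close but did not overlap, and the call held only without control replicate 3 (0.0396, and 0.0504 to 0.139 without each other library). Rrm1, the large subunit of the same enzyme, was nearly level at 44.7, 50.1 and 48.8 CPM in control against 51.9, 49.5 and 48.0 CPM (0.06, SE 0.08, 95% interval −0.13 to 0.24). Tyms, thymidylate synthase, and Tk1, thymidine kinase, had log2 fold changes of 0.40 (SE 0.20) and 0.33 (SE 0.19) and did not pass (adjusted p = 0.169 and 0.250).

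Both genes of mitotic chromosome structure rose. Mki67 (ENSMUSG00000031004, chr7:135689784-135716361 in GRCm38), which encodes the Ki-67 protein that coats mitotic chromosomes, stood at 43.9, 38.6 and 41.4 CPM in control and at 58.9, 79.7 and 65.5 CPM in Myf5Cre-Pcyt2. The lowest Myf5Cre-Pcyt2 library lay well above the highest control (0.72, SE 0.11, adjusted p = 0.00416). Top2a (ENSMUSG00000020914, chr11:98992943-99024189), the topoisomerase that untangles sister DNA, went from 37.9, 31.9 and 37.9 CPM to 49.9, 56.8 and 50.6 CPM (0.55, SE 0.10, adjusted p = 0.0061). Both passed without any single library, and their adjusted p without both replicate 2 libraries was 0.0529 and 0.0814. Per kilobase of exon the mean control level was 4.11 CPM for Mki67 and 3.98 CPM for Top2a, beside 3.45 CPM for Mcm6 and 5.02 CPM for Ccna2.

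In the cyclin and kinase engine of mitosis 1 of 4 genes passed. Ccna2, cyclin A2, which acts from S phase to early mitosis, was at 19.3, 20.1 and 22.2 CPM in control and 24.6, 30.1 and 25.0 CPM in Myf5Cre-Pcyt2 (0.38, SE 0.11, adjusted p = 0.0323). Its groups did not overlap, and its call was lost when control replicate 1 or 2 (0.0735 and 0.0923) or Myf5Cre-Pcyt2 replicate 2 or 3 (0.139 and 0.0649) was left out. Ccnb1 and Ccnb2, the B cyclins that trigger mitosis, had log2 fold changes of 0.52 (SE 0.24) and 0.45 (SE 0.15), with groups that did not overlap, and did not pass (adjusted p = 0.149 and 0.0610). Ccnb1 rested on 28 to 76 counts a library. Cdk1, their kinase, had 0.40 (SE 0.17, adjusted p = 0.127), and control replicate 3 with 14.3 CPM stood above Myf5Cre-Pcyt2 replicate 3 with 12.8 CPM.

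None of the 7 genes of checkpoint, anaphase onset and mitotic kinases passed. Cdc20, the activator of the anaphase-promoting complex, and the checkpoint genes Bub1 and Bub1b had log2 fold changes of 0.35, 0.30 and 0.28 with adjusted p = 0.136, 0.216 and 0.146, and their groups overlapped. Plk1, Aurkb and Birc5, 3 regulators of spindle and chromosome attachment, had 0.44, 0.51 and 0.54 with adjusted p = 0.159, 0.0644 and 0.0891. Of these 3, Aurkb alone had groups that did not overlap. Aurka, the kinase of the centrosome, was the one mitotic gene with a negative value. It stood at 3.92, 6.85 and 5.56 CPM in control and at 3.90, 4.72 and 4.30 CPM in Myf5Cre-Pcyt2 (−0.33, SE 0.21, adjusted p = 0.286), and the control libraries spread more widely than the others.

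Of 5 genes of kinetochore and spindle 3 rose by similar amounts. Tpx2, which activates Aurora A on the spindle, was at 11.9, 12.9 and 15.2 CPM in control and 17.4, 19.0 and 17.4 CPM in Myf5Cre-Pcyt2 (0.43, SE 0.11, adjusted p = 0.0247). Cenpf, a kinetochore protein, was at 12.0, 12.0 and 13.6 CPM against 15.5, 19.0 and 15.3 CPM (0.41, SE 0.12, adjusted p = 0.0346). Kif11, the motor that pushes spindle poles apart, was at 12.1, 12.5 and 14.5 CPM against 15.9, 17.7 and 18.3 CPM (0.41, SE 0.11, adjusted p = 0.0272). In all 3 the groups stayed apart, and all 3 lost the call without control replicate 1 (adjusted p = 0.0582 to 0.0731), control replicate 2 (0.0759 to 0.102), Myf5Cre-Pcyt2 replicate 2 (0.0961 to 0.145) or Myf5Cre-Pcyt2 replicate 3 (0.0563 to 0.103). Cenpe, a motor of the kinetochore, had 0.37 (SE 0.18, adjusted p = 0.162). Kif20a, a motor of the central spindle, had 0.13 (SE 0.13, adjusted p = 0.523), and its value turned to −0.01 without Myf5Cre-Pcyt2 replicate 2, the only library in which it stood above the controls.

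**Figure D4:**
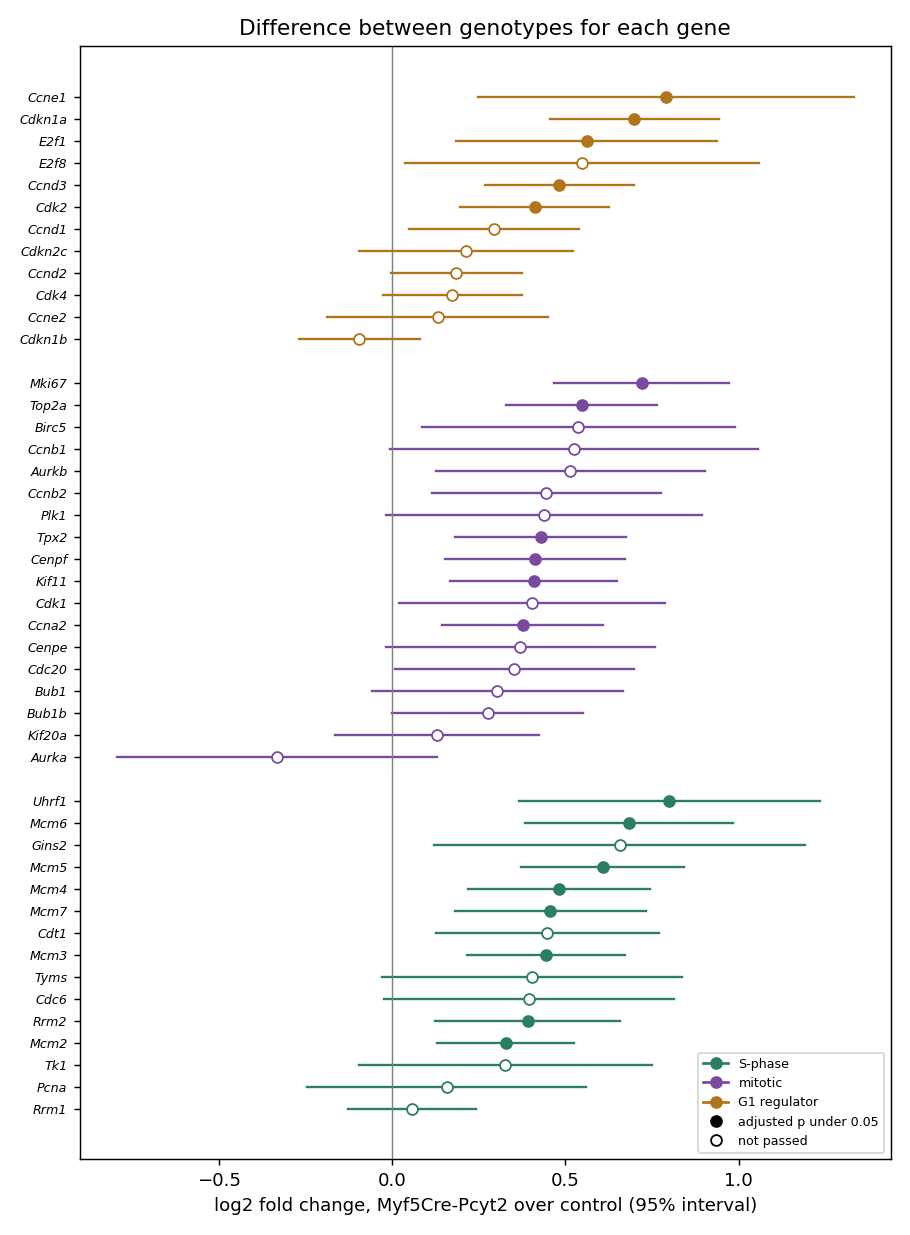
Log2 fold change of each of the 45 genes, Myf5Cre-Pcyt2 over control (horizontal axis), with its 95% interval, grouped as S-phase, mitotic and G1 regulator genes. Filled points have an adjusted p under 0.05. The points of S-phase genes run from 0.06 to 0.80, those of mitotic genes from −0.33 to 0.72 and those of G1 regulators from −0.09 to 0.79.

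S-phase and mitotic genes were compared by their counts and medians, and the difference between them was not tested. Of 15 S-phase genes 8 rose, 0 fell and 12 had groups that did not overlap (median 0.44), and of 18 mitotic genes 6 rose, 0 fell and 9 had such groups (median 0.41). In those 12 and 9 genes the Myf5Cre-Pcyt2 libraries were the higher ones. Beside these counts, 9.02% of all genes tested rose and 9.59% fell. Every Myf5Cre-Pcyt2 library lay above every control library for 19.9% of all genes tested, and the reverse held for 19.2%. Summed over the S-phase genes the level was 200.9, 176.0 and 205.0 CPM in control and 257.0, 261.9 and 238.3 CPM in Myf5Cre-Pcyt2. Summed over the mitotic genes it was 211.4, 197.2 and 228.9 CPM against 276.5, 330.7 and 274.8 CPM. Both sums were apart between the groups. Control libraries had a ratio of the mitotic to the S-phase sum of 1.05, 1.12 and 1.12, and Myf5Cre-Pcyt2 libraries had 1.08, 1.26 and 1.15. These ratios overlapped, and Myf5Cre-Pcyt2 replicate 2 stood highest. That library had the highest level of the 6 for 15 of 18 mitotic genes but for 7 of 15 S-phase genes. Control replicate 2 had the lowest level for 12 of the S-phase and 11 of the mitotic genes. With control replicate 2 left out the calls were 3 S-phase and 2 mitotic genes, with Myf5Cre-Pcyt2 replicate 2 left out 2 and 2, and with both left out 0 and 0 with 7 and 5 genes at an unadjusted p under 0.05. The medians of S-phase and mitotic genes were then 0.35 and 0.38, 0.43 and 0.30, and 0.32 and 0.26. In the same order, 4.01%, 2.84% and 0.774% of all tested genes were called higher. Without a filter on low counts 10 mitotic genes passed, while 6.14% of all 28169 genes then tested were called higher.

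Of the 12 regulators of G1, 5 rose (41.7%, against 9.02% of all genes tested) and 0 fell (median 0.35). Cyclins D1, D2 and D3 partner CDK4 and start the passage through G1. Ccnd3 (ENSMUSG00000034165, chr17:47505051-47599691 in GRCm38) stood at 75.3, 71.2 and 86.1 CPM in control and 113.1, 112.2 and 99.7 CPM in Myf5Cre-Pcyt2, with no overlap (0.48, SE 0.10, adjusted p = 0.00956). Ccnd1 was at 79.6, 82.5 and 100.8 CPM against 113.8, 112.7 and 95.8 CPM (0.29, SE 0.11, adjusted p = 0.0887). Control replicate 3 was above Myf5Cre-Pcyt2 replicate 3. Ccnd2 was at 108.9, 111.8 and 121.0 CPM against 123.7, 136.7 and 128.0 CPM, apart by a narrow gap (0.18, SE 0.09, adjusted p = 0.153). Cdk4 had 57.5, 54.4 and 62.7 CPM against 69.8, 67.2 and 60.1 CPM and overlapped (0.17, SE 0.09, adjusted p = 0.202). Ccnd3 passed without any single library.

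Cyclin E with CDK2 carries the cell into S phase. Cdk2 stood at 15.1, 13.5 and 15.5 CPM in control and 18.8, 20.8 and 18.9 CPM in Myf5Cre-Pcyt2, with no overlap (0.41, SE 0.10, adjusted p = 0.0174). Ccne1 was at 4.18, 3.42 and 6.43 CPM against 9.503, 8.86 and 5.91 CPM, where replicate 3 of each group crossed the other (0.79, SE 0.25, adjusted p = 0.0469). Ccne2 was at 7.62, 7.89 and 9.21 CPM against 7.58, 9.69 and 9.75 CPM and did not pass (0.13, SE 0.14, adjusted p = 0.551). Cdk2 lost its call when control replicate 2 (0.0611) or Myf5Cre-Pcyt2 replicate 2 or 3 (0.0794 and 0.0510) was left out. Ccne1 passed without control replicate 3 or Myf5Cre-Pcyt2 replicate 3 (0.0166 and 0.0388) and gave 0.0980 to 0.157 without each other library.

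The inhibitors differed among themselves. Cdkn1a (ENSMUSG00000023067, chr17:29090976-29100727 in GRCm38), which encodes p21, stood at 48.7, 37.1 and 47.6 CPM in control and 72.9, 76.0 and 67.6 CPM in Myf5Cre-Pcyt2. All Myf5Cre-Pcyt2 libraries were far above all controls (0.70, SE 0.11, adjusted p = 0.00414), and Cdkn1a alone of the 45 genes passed in all 14 other settings tried (adjusted p from 2.94e-09 to 0.0438). Cdkn1b, which encodes p27, was at 84.5, 80.9 and 76.9 CPM against 76.1, 77.2 and 73.8 CPM (−0.09, SE 0.08, adjusted p = 0.427). The groups overlapped, and scaled by library size alone its value was 0.12. Cdkn2c, which encodes p18, was at 18.8, 12.4 and 16.2 CPM against 19.97, 17.8 and 17.5 CPM and overlapped as well (0.21, SE 0.14, adjusted p = 0.304). Bulk RNA does not tell whether Cdkn1a and the genes of replication and mitosis rose in the same cells.

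Of the 2 E2F genes 1 rose. E2f1, an activator, was at 7.15, 5.51 and 9.04 CPM in control and 11.6, 10.5 and 9.89 CPM in Myf5Cre-Pcyt2, with groups that came near each other but did not overlap (0.56, SE 0.17, adjusted p = 0.0432). It passed without control replicate 3 (0.0157) and not without any other single library (0.0753 to 0.122). E2f8, an atypical member that represses, was at 4.82, 3.65 and 4.92 CPM against 4.59, 8.65 and 6.28 CPM. Here Myf5Cre-Pcyt2 replicate 1 lay among the controls (0.55, SE 0.23, adjusted p = 0.120).

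Genes of the same pathways outside the 45 had medians of the same sign. Of 57 other replication genes 15 rose (26.3%, against 9.02% of all genes tested), 0 fell and 42 did not pass (median 0.31). Cdc7, the kinase that fires origins, went from 3.18, 2.32 and 2.61 CPM to 5.39, 5.11 and 5.73 CPM (0.997, SE 0.18, adjusted p = 0.0061). Lig1, which seals the fragments of the lagging strand, rose with 0.65 (SE 0.11, adjusted p = 0.00522), and Dnmt1, the maintenance methyltransferase that Uhrf1 recruits, with 0.44 (SE 0.10, adjusted p = 0.0129). Cdc7 was higher in every Myf5Cre-Pcyt2 library than in any control, and Cdc7 and Lig1 kept their call without any single library, which Dnmt1 did not without either replicate 2 library (adjusted p up to 0.144 over the alternatives). Of 75 tested genes among 76 other mitosis genes 19 rose (25.3%, against the same 9.02%), 0 fell and 56 did not pass (median 0.39). Smc2, a condensin subunit, had 0.53 (SE 0.10, adjusted p = 0.00837), Foxm1, a factor that drives late cycle genes, had 0.61 (SE 0.12, adjusted p = 0.00966), and Racgap1, a protein of the cleavage furrow, had 0.50 (SE 0.10, adjusted p = 0.0105). Foxm1 did not pass without Myf5Cre-Pcyt2 replicate 2 (up to 0.127 over the alternatives). Leaving out control replicate 2 turned the 15 and 19 calls into 2 and 6. Leaving out Myf5Cre-Pcyt2 replicate 2 turned them into 3 and 3, and leaving out its replicate 3 into 6 and 8, of which 1 of the 8 was lower. In the same order, 4.01%, 2.84% and 4.29% of all tested genes were called higher with these libraries left out.

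Other genes of G1 and of cell cycle arrest were mostly not called. Of 21 tested genes among 23 other G1 and arrest genes 2 rose, 1 fell and 18 did not pass (median 0.02). The 9.52% that rose is near the 9.02% of all genes tested. The 2 that rose were Cdk6, a kinase partner of the D cyclins (0.45, SE 0.14, adjusted p = 0.0473), and Rbl1, which encodes the pocket protein p107 (0.58, SE 0.16, adjusted p = 0.0297). The one that fell was Rbl2, which encodes p130, the pocket protein of resting cells. It stood at 40.1, 47.6 and 39.9 CPM in control and 28.2, 25.7 and 32.8 CPM in Myf5Cre-Pcyt2, with no overlap (−0.56, SE 0.11, adjusted p = 0.00923). Over the alternatives the adjusted p reached 0.398 for Cdk6, 0.173 for Rbl1 and 0.112 for Rbl2. None of these 3 passed without Myf5Cre-Pcyt2 replicate 2, where 0 of the list were called by edgeR's test and 4 had an unadjusted p under 0.05.

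Because p21 is a classical target of p53, 19 other p53 targets were read beside it, of which 18 were tested. Of these 2 rose, 2 fell and 14 did not pass (median −0.08), so that 11.1% rose, near the 9.02% of all genes tested, and as many fell, near the 9.59% of all genes. Ccng1, cyclin G1, fell from 1454, 1863 and 1868 CPM to 1020, 744.4 and 960.2 CPM, with no overlap (−0.93, SE 0.15, adjusted p = 0.00459), and kept its call without any single library. Sesn1, a stress-induced sestrin, rose with 0.34 (SE 0.08, adjusted p = 0.0205), and Eda2r rose with 0.40 (SE 0.10, adjusted p = 0.0252). Ei24, a protein of the endoplasmic reticulum, had −0.30 (SE 0.09, adjusted p = 0.0326). Ccng1 alone of the list passed when replicate 2 or replicate 3 of Myf5Cre-Pcyt2 was left out.

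Of the markers of cells that the muscle could hold, the sums for satellite cells, Schwann cells and fibroblasts were higher in Myf5Cre-Pcyt2 with no overlap, those for myofibres and for pericytes and smooth muscle were lower with no overlap, and the others overlapped. Their part in the result was not tested. The marker counts below stand beside 9.02% of all genes tested called higher and 9.59% called lower. All 6 myofibre markers were abundant, with a sum of 99250 to 134800 CPM in control and 66080 to 76050 CPM in Myf5Cre-Pcyt2. Ckm, Tnnt3 and Pvalb fell, 3 others did not pass, and 1 of the 6 had a log2 fold change above 0. The myofibre sum was highest in control replicate 2 (134800 CPM) and lowest in Myf5Cre-Pcyt2 replicate 2 (66080 CPM). Of 8 markers of satellite cells and myoblasts 4 rose and 0 fell, with a sum of 249.7 to 267.2 CPM in control and 314.5 to 333.9 CPM in Myf5Cre-Pcyt2. Pax7, the factor of satellite cells, stood at 11.2, 9.69 and 9.56 CPM in control and 17.6, 16.5 and 15.2 CPM in Myf5Cre-Pcyt2 (0.69, SE 0.11, adjusted p = 0.00421). Cdh15, M-cadherin of the same cells, had 0.78 (SE 0.09, adjusted p = 0.00136). Over the 8 markers the log2 fold changes ran from 0.06 to 0.78 with a median of 0.23, beside 0.41 for the 45 genes.

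Schwann cells, the glia of motor nerves, gave a parallel shift. Of their 6 markers 4 rose (66.7%, against 9.02% of all genes tested), among them Sox10, a factor of the glial lineage (0.92, SE 0.16, adjusted p = 0.00554). The sum of the 6 was 406.1 to 499.4 CPM in control and 607.0 to 824.3 CPM in Myf5Cre-Pcyt2, highest in replicate 2. Of 6 fibroblast markers 1 rose (16.7%, against the same 9.02%), Pdgfra (0.54, SE 0.08, adjusted p = 0.00323), and 0 fell. For 2 of the 6 every Myf5Cre-Pcyt2 library lay above every control library (33.3%, against 19.9% of all genes tested). For 1 of the 6 the reverse held, as it did for 19.2% of all genes tested. The sum of the fibroblast markers was 8399 to 10930 CPM in control and 11540 to 13150 CPM in Myf5Cre-Pcyt2. Of 6 endothelial markers 0 rose and 1 fell (Emcn), with sums of 656.9 to 798.0 and 687.7 to 777.0 CPM. None of 6 macrophage markers passed in edgeR's test, and 2 had an unadjusted p under 0.05 (132.1 to 158.7 CPM in control, 151.7 to 173.0 CPM in Myf5Cre-Pcyt2). Of 4 tested erythroid markers 1 rose (Alas2), with overlapping sums of 180.5 to 274.2 and 210.2 to 293.1 CPM. Of 5 pericyte and smooth muscle markers 1 fell (Acta2), with sums of 1830 to 2128 and 1369 to 1603 CPM. Adipocyte markers overlapped and 0 of 5 passed, with 1 at an unadjusted p under 0.05 (19.4 to 198.9 and 51.0 to 70.2 CPM). Markers of lymphocytes summed to at most 2.22 CPM and those of neutrophils to at most 1.62 CPM in any library, near 0. No marker found in the table was at 0 in every library.

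**Figure D5:**
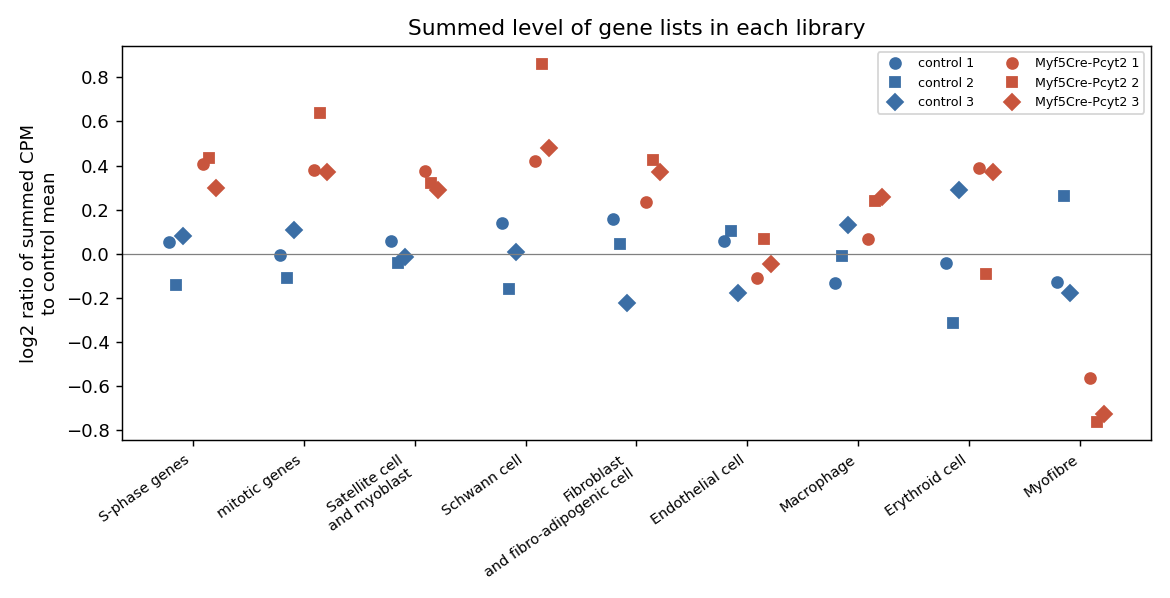
Summed level of S-phase genes, mitotic genes and 7 lists of cell type markers in each library, as the log2 ratio of summed CPM to the control mean (vertical axis), with blue control and red Myf5Cre-Pcyt2 marks and a shape for each replicate number. Satellite cell, Schwann cell and fibroblast marks are apart and higher in Myf5Cre-Pcyt2, as are those of S-phase and mitotic genes, myofibre marks are apart and lower, and endothelial, macrophage and erythroid marks overlap.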

How the data were processed

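The authors deposited raw read counts per Ensembl gene. Per the submitters' processing notes the build was GRCm38 (mm10) and the tools were featureCounts (Subread 1.6.2), Bowtie2 2.3.4.1 and Trim Galore 0.5.0. The sources used here do not give the annotation release, the strand setting or the treatment of multi-mapping reads. Per the labels, quadriceps was frozen in liquid nitrogen and 1.3 µg of column-purified total RNA went into each library.

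Symbols, positions and union exon lengths came from GENCODE M21. Counts were analysed in R 4.3.3 with edgeR 4.0.16 (filterByExpr with a minimum count of 10, TMM, two-sided quasi-likelihood test on 14715 genes, Benjamini-Hochberg adjustment, threshold 0.05, no covariates). Levels are TMM-scaled CPM. Library ratios used a pseudocount of 0.5 CPM. Other settings tried were scaling by library size or by DESeq2 size factors, DESeq2 1.42.0, limma-voom (limma 3.58.1), no filter, at least 1 CPM in 3 libraries, a replicate block and leaving out each library. The biological coefficient of variation was 11.6%. On simulated counts of 14442 genes, with 200 genes changed, the test found 57.3% of true 1.5-fold changes, 88.9% of 2-fold and 100% of 4-fold ones. There were 15 false calls among 174. No pair of libraries agreed within sampling noise.

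The 45 genes, the other lists and the named genes were chosen with earlier results of these data known. All 45 could be named, with values in every library for those past the threshold and for G1 regulators. From other lists up to 3 genes with the smallest p past the threshold were named, and markers and genes beyond these were chosen after their values were seen. The values of 1 marker gene are not reported here, and it stays in the totals and list counts.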

Additional observations from a re-analysis of the deposited data

How the results depend on the processing

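Over 14 alternative settings, the 45 genes gave 523 values with the same direction and side of the threshold, 78 that lost the call, 25 that gained it and 4 that changed sign. Those 4 were Pcna without Myf5Cre-Pcyt2 replicate 1 (−0.032, up to 0.369 with another library left out), Kif20a without Myf5Cre-Pcyt2 replicate 2 (−0.008, up to 0.193) and without both replicate 2 libraries (−0.017), and Cdkn1b with library size alone (0.116). In none of the settings was any of the 45 genes called lower. Leaving out each library in turn gave 846 to 2785 calls over the whole table, 6 to 19 among the 45 genes, 2 to 6 S-phase, 2 to 7 mitotic and 2 to 6 G1 regulator genes. It gave 2 to 14 other replication, 3 to 16 other mitosis and 0 to 3 other G1 and arrest genes and 1 to 4 p53 targets. Without both replicate 2 libraries, a setting added after seeing the data, these were 237, 1, 0, 0, 1, 0, 0, 0 and 1, and by unadjusted p under 0.05 there were 2983, 16, 7, 5, 4, 12, 13, 3 and 5. With library size alone 30 of the 45 genes were called higher (12 mitotic, 8 G1 regulator), with 25 other replication and 32 other mitosis genes. Of the other G1 and arrest genes 5 were then called higher and 1 lower. In that setting 21.9% of all genes tested were called higher and 3.39% lower. With no filter 10 mitotic genes passed (6.14% of all genes were called higher), and with DESeq2 9 other replication genes, of which 1 was lower. The replicate block gave 1731 calls in all, with 5.88% of all genes tested called higher and 5.89% lower. Among the 45 genes 13 were then called higher (6 S-phase, 4 mitotic, 3 G1 regulator). With the block 7 other replication genes were called higher, 9 other mitosis genes were called higher and 1 lower, and 1 p53 target was called in each direction. The cause of these differences was not tested. Deviations of same-numbered libraries correlated at −0.11, −0.17 and 0.02 and those of others at −0.06 to 0.16. Whether the numbers pair the samples was not tested and cannot be told from these values. With 3 libraries a group, genes changed 1.5-fold were found in 57.3% of simulated cases, so a member that did not pass is not shown to be unchanged. The simulation changed 200 genes, whereas 2739 were called in the data, and it held no fold under 1.5. Its share may therefore differ from the share for these genes.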

Other observations

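Pttg1, which encodes securin, the inhibitor of separase that is destroyed at anaphase, went against most other mitosis genes, and was chosen after its values were seen. Of the 75 tested 71 had a log2 fold change above 0 (49.8% of all genes tested). For 2 of the 75 every Myf5Cre-Pcyt2 library lay below every control library (19.2% of all genes tested). Pttg1 stood at 13.6, 11.5 and 11.9 CPM in control and at 2.24, 3.10 and 9.84 CPM in Myf5Cre-Pcyt2. The groups did not overlap, 2 of the 3 Myf5Cre-Pcyt2 libraries were far below every other library, and the third lay near the controls. The log2 fold change was −1.27 (SE 0.40) with an adjusted p of 0.0502 in edgeR's test, which ranged from 1.83e-14 to 0.264 over the alternatives. This was the lowest log2 fold change among the 75 other mitosis genes tested, whose highest was 0.93.

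Cdkn1c, which encodes the inhibitor p57 and was also chosen after its values were seen, stood at 736.6 ± 98.7 CPM (SD, n = 3) in the control libraries and 891.8 ± 61.0 CPM in the others. Per kilobase of exon its mean control level was 361.3 CPM, against 17.7 CPM for Cdkn1b and 12.5 CPM for Cdkn1a. Its groups overlapped and it did not pass (0.28, SE 0.12, edgeR adjusted p = 0.138).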
